A study of Mus musculus with 6 samples.

Results

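The genes described here encode the translation initiation factors of the mouse. They were taken by name, as every gene whose current symbol begins with Eif and a digit from 1 to 6, which includes the eIF2 alpha kinases, the eIF4E-binding repressors and Eif1ad. On the arrays 97 of 41174 non-control probes belonged to 52 such genes. All 97 probes were kept by the filter on dim probes, and all 52 genes were among the 20091 features tested. The symbol Eif2b3 matched no probe and is not analysed here.

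Initiation factors bring the small ribosomal subunit, the initiator tRNA and the capped end of an mRNA together and release them when a start codon has been found. The factor eIF2 carries the initiator tRNA and needs the exchange factor eIF2B to be reloaded with GTP, a step that kinases of eIF2 alpha restrain under stress. GSK-3, a serine/threonine kinase of insulin and Wnt signalling, phosphorylates the epsilon subunit of eIF2B and thereby lowers its activity, and inherited defects of eIF2B cause a white matter disease in which astrocytes are affected.

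RNA came from primary astrocytes of the cortex and striatum of wild-type C57BL/6J mice, prepared from 1-day-old pups and grown in medium with 10% serum. Control cultures received no inhibitor. The labels call their condition control medium, while the treatment protocol speaks of DMSO at a matching concentration, so that whether they received DMSO is unclear. Ro cultures received 1 µM Ro3303544, an inhibitor of GSK-3, for 48 h from 13 days in vitro, and washout cultures had the same treatment followed by 48 h in medium without the compound. All cultures had been exposed for 2 days to 5 µM cytosine arabinoside, which kills dividing cells, and the protocol put microglia carrying Iba1 at less than 1% of the cells. From these times the harvest fell at day 15 in vitro for control and Ro and at day 17 for washout, with no control of the later age. Each group had 2 arrays, and the labels do not say whether these came from separate cultures, so that p-values measure only the spread between these samples.

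Per array, 60.4% to 65.2% of probes passed the scanner software's test against background, and replicates correlated across features at 0.992 to 0.996. The number of arrays limits the precision. Control and Ro arrays lay on 1 slide and washout arrays on another, so that washout, slide and age cannot be told apart. On the washout slide, bright regions, where dim spots were raised together, took up 3.94% of the spots of washout 1 and 0.853% of those of washout 2, and 4 of the 97 probes lay there. All 10 astrocyte markers were well above background. Their summed level, in multiples of the array's 75th percentile of intensity, was 363 to 366 in control, 173 to 181 in Ro and 329 to 352 in washout. That sum is carried by the brightest probes, such as that of Fabp7, with a mean log2 level of 7.47 in control and 5.42 in Ro. In Ro 7 of the 10 were lower than in control and 2, Slc1a2 and Gja1, were higher, while Slc1a3 did not pass. Of all features 22.7% were lower and 19.4% higher.

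Levels below are log2 intensities relative to the 75th percentile of the array, and a change is the difference between group means ± its standard error from limma, with 2 arrays a group. Levels are not compared between genes, since probes bind with different strength. A gene is called higher or lower where limma's p, adjusted by Benjamini-Hochberg over all 20091 features, was under 0.05.

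In cultures treated with the GSK-3 inhibitor, 19 of the 52 initiation genes were higher than in control. They came from each complex described below except the eIF2 alpha kinases, and most of the rises were small. The gene of the eIF2B delta subunit, Eif2b4, was the one that passed 2-fold. The kinase gene Eif2ak2 was lower, and 32 genes did not pass the test. The 19 make 36.5% of the genes, beside 19.4% of all features called higher. The single gene makes 1.92%, beside 22.7% of all features called lower. The share called in either direction, 38.5%, lay near the 42.1% of all features. The median change was 0.23 against 0.00 over all features, and 45 of the 52 values were above 0. Changes were modest in size. The median absolute change was 0.24, against 0.31 over all features, and 1 gene passed 2-fold, as did 11.3% of all features.

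After 48 h without the inhibitor most differences from Ro were negative. In washout against Ro, 23 genes were lower and 1 was higher, 44.2% and 1.92% of the 52, beside 20.1% and 21.4% of all features. The share called in either direction was 46.2%, near the 41.5% of all features, and 1 gene passed 2-fold, as did 11.5% of all features. The median change was -0.25 against -0.02 over all features. This comparison uses the same Ro arrays as the one with control, so that a high value in Ro enters both, and the 2 are given side by side only. In washout against control no member was called, beside 10.1% of all features (4.11% higher and 5.95% lower). With limma 3 of the 52 members had an unadjusted p under 0.05 there, as had 5756 of all 20091 features. A variance trend with intensity gave 1 call in that comparison, Eif1a, or 2 with a robust fit, Eif1a and Eif2s3y. These fits called 14% and 14.2% of all features. The median absolute change of the members was 0.08, against 0.17 over all features, and their changes ran from -0.27 to 0.33.

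**Figure D1:**
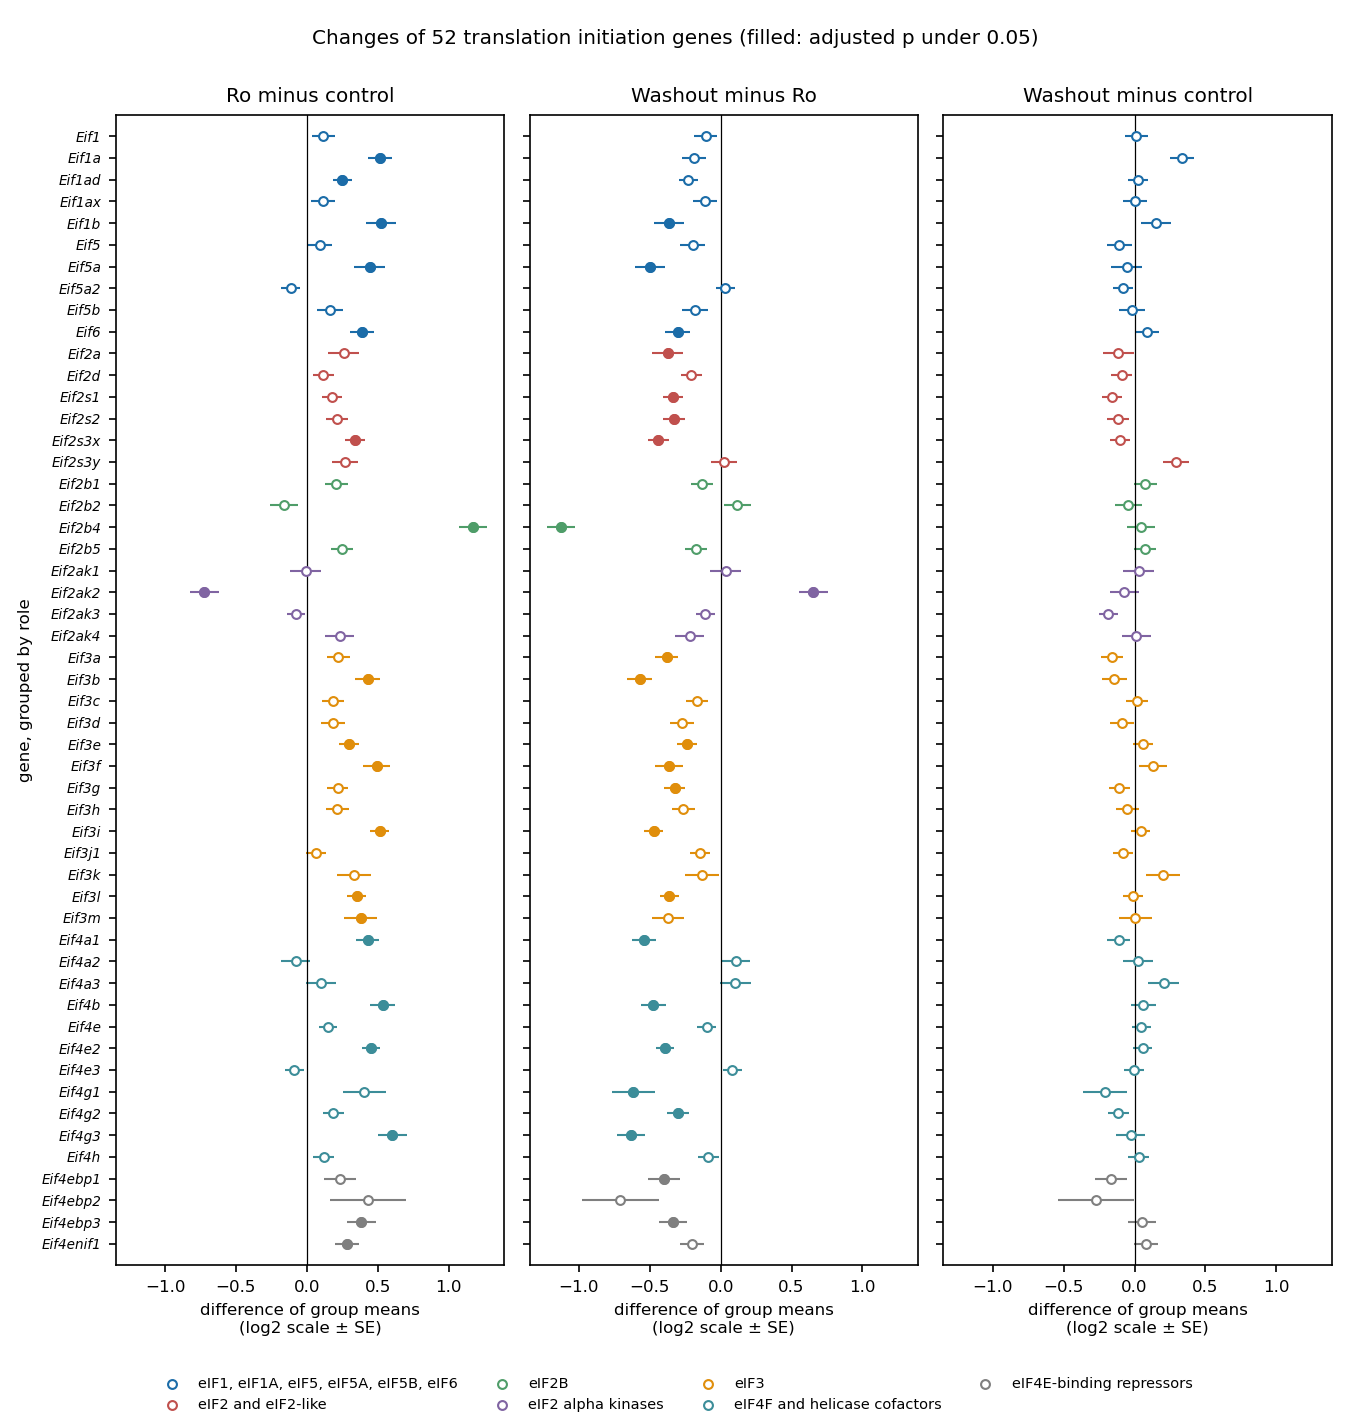
Difference of group means on the log2 scale ± standard error for each of the 52 genes, grouped and coloured by role, with 1 panel per comparison; filled points passed adjusted p under 0.05. In Ro minus control 45 points lie right of 0, in washout minus Ro 44 lie left of it, and in washout minus control none is filled.

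The number of calls moved with the arrays used. Without control 1 or control 2, 9 genes were higher in Ro, and without Ro 1 or Ro 2 there were 5, while the share of all features called in either direction fell to between 22.5% and 29.3%. Of the 20 calls, those of Eif2b4, Eif2ak2, Eif3i and Eif4e2 held whichever array was left out. For washout against Ro the genes lower numbered 6 without Ro 1, 5 without Ro 2 and 15 without washout 2, and 6 of the 24 calls held in each case, those of Eif2b4, Eif2ak2, Eif3b, Eif3i, Eif4a1 and Eif4g3.

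**Figure D2:**
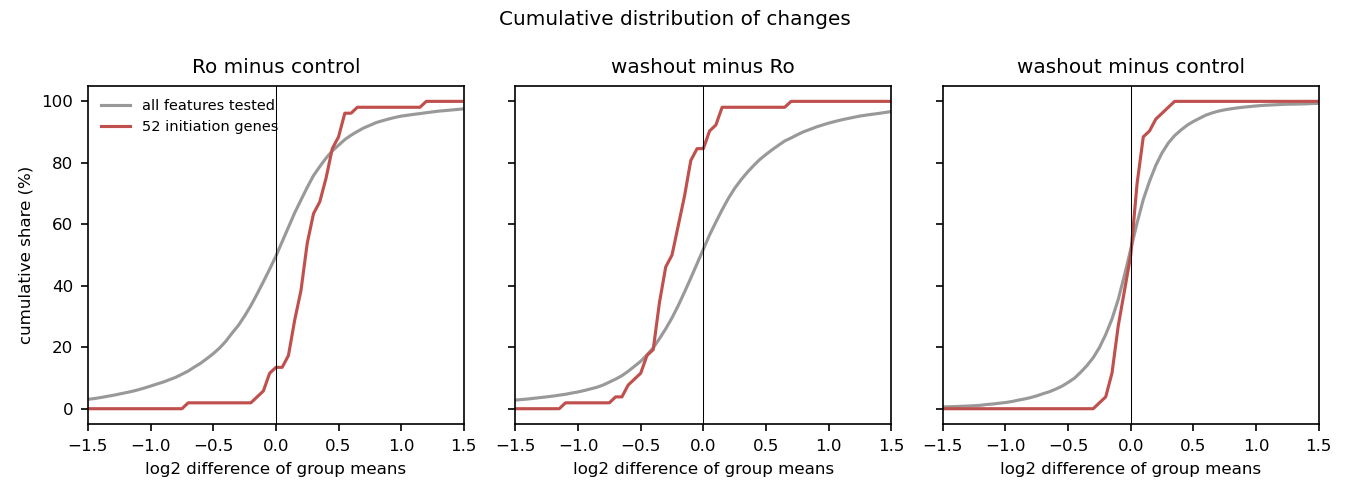
Cumulative share of genes, in percent, at or below each log2 difference of group means, for the 52 initiation genes (red) and all 20091 features (grey). The initiation genes lie right of the other features around 0 in Ro minus control, left of them in washout minus Ro, and rise more steeply than they do in washout minus control.

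Among the eIF2B subunits, Eif2b4 had the largest change of all members. Its promoter is shown because no other member reached 2-fold. The window comes from RefSeq on GRCm38.p6, on the minus strand at chr5:31193140-31193239, and gives the 100 bases before the transcription start, 5′ to 3′, in which none of the 3 motifs described below was found.
Eif2b4: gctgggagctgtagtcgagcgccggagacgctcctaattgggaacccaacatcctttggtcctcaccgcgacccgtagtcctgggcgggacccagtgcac

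The level of Eif2b4, the delta subunit, in the regulatory part of eIF2B, was 2.74 and 2.73 in control, 3.83 and 3.98 in Ro, and 2.87 and 2.69 in washout. Both Ro arrays stood about 1 log2 unit above all other arrays, and the control values lay between those of washout. The change in Ro against control was 1.17 ± 0.10, a 2.25-fold rise (adjusted p = 0.0010), with a 95% interval of 0.92 to 1.42. In washout against Ro the level was 2.18-fold lower (-1.13 ± 0.10, adjusted p = 0.0010). In washout against control the difference was 0.05, with an interval of -0.20 to 0.29. A dimmer probe for the same gene gave 1.08 ± 0.09 in Ro against control and -0.99 ± 0.09 in washout against Ro.

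The other subunits did not pass the test in any comparison, though some did under other settings. Eif2b5 encodes the catalytic epsilon subunit, the one that GSK-3 phosphorylates. Its level was 1.15 and 1.10 in control, 1.33 and 1.42 in Ro, and 1.25 and 1.15 in washout. The Ro arrays were the highest and did not overlap the control arrays, and the change of 0.25 ± 0.08 had an adjusted p of 0.055, with an interval of 0.05 to 0.45. It passed under 6 of 21 alternatives, among them quantile normalization (0.27, adjusted p = 0.030) and normexp on median signals (0.29, adjusted p = 0.049). Eif2b1, the alpha subunit that binds phosphorylated eIF2, differed by 0.21 ± 0.08 (adjusted p = 0.092) and passed with a variance trend, robust or not (adjusted p = 0.042 and 0.039). Eif2b2, the beta subunit, differed by -0.16 ± 0.10 (adjusted p = 0.24), with an interval of -0.41 to 0.08. The interval of Eif2b4 lay above those of all 3 other subunits, though the difference between genes was not tested.

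The genes next to Eif2b4 in the RefSeq gene order did not pass the test in any comparison. Snx17, a sorting nexin gene that lies head to head with it, differed by -0.04 ± 0.08 in Ro against control, with an interval of -0.25 to 0.17. Mpv17, Gtf3c2, Zfp513 and Ppm1g had differences from -0.03 to 0.19 in that comparison. These neighbours were picked after the values of Eif2b4 had been seen.

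Of the 4 kinases that phosphorylate eIF2 alpha, Eif2ak2 fell and the other 3 did not pass the test. The 100 bases before its RefSeq start (GRCm38.p6, minus strand, chr17:78882573-78882672) are shown because it is the member that moved against the rest. They hold none of the 3 motifs either.
Eif2ak2: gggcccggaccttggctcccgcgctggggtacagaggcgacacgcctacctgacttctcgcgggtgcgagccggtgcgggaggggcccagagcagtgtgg

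Eif2ak2 encodes PKR, the kinase that responds to double-stranded RNA and is induced by interferon. Its level was 0.50 and 0.29 in control, -0.35 and -0.31 in Ro, and 0.40 and 0.25 in washout. The Ro arrays were the lowest by more than 0.5, and control and washout arrays overlapped. The change was -0.72 ± 0.10 in Ro against control (1.65-fold lower, adjusted p = 0.0049) and 0.65 ± 0.10 in washout against Ro (1.57-fold higher, adjusted p = 0.0066). Against control the washout difference was -0.07, with an interval of -0.33 to 0.19.

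The stress kinase genes Eif2ak3 (PERK, of the endoplasmic reticulum) and Eif2ak4 (GCN2, which senses uncharged tRNA) differed by -0.08 ± 0.07 and 0.23 ± 0.10 in Ro against control (adjusted p = 0.40 and 0.13). Eif2ak1, the haem-regulated kinase, differed by -0.01 ± 0.11, and its dimmer probe gave -0.31. The sign of the brighter probe there turned positive with quantile normalization (0.00), median centring (0.01) and the authors' deposited ratios (0.04).

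Of the 6 genes for eIF2 and related tRNA carriers, Eif2s3x was higher in Ro, and 4 were lower in washout than in Ro. As shares these are 16.7% and 66.7%, beside 19.4% and 20.1% of all features. Eif2s3x, the X-linked gene of the gamma subunit that binds GTP and the tRNA, read 3.16 and 3.23 in control, 3.50 and 3.57 in Ro, and 3.09 and 3.11 in washout. Both Ro arrays exceeded all others, with a change of 0.34 ± 0.07 (adjusted p = 0.017) and of -0.44 ± 0.07 after washout (adjusted p = 0.0076). The gene's other 2 probes gave 0.04 and 0.03 in Ro against control, and the mean of its probes gave 0.13 (adjusted p = 0.18), so that the rise rests on its brightest probe. Its Y-linked copy Eif2s3y differed by 0.27 ± 0.09 (adjusted p = 0.068), and near-identical copies can share signal on an array.

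Eif2s1 encodes eIF2 alpha, the subunit that the 4 kinases phosphorylate. It read 2.27 and 2.31 in control, 2.49 and 2.44 in Ro, and 2.10 and 2.16 in washout. The 3 groups did not overlap. The change was 0.18 ± 0.07 in Ro (adjusted p = 0.10) and -0.33 ± 0.07 in washout against Ro (adjusted p = 0.017). The beta subunit gene Eif2s2 and the separate tRNA-binding factor Eif2a were lower in washout than in Ro as well. Their changes were -0.33 ± 0.08 and -0.37 ± 0.11 (adjusted p = 0.024 and 0.046), and the call of Eif2a was lost under 10 of 21 alternatives. Tested probe by probe, the dimmer probe of Eif2s2 gave 0.23 ± 0.07 in Ro against control (adjusted p = 0.044), while the brighter one did not pass there. Eif2d, which can place tRNA without GTP, did not pass the test.

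All 13 genes of eIF3, the scaffold that covers the small subunit and recruits the other factors, had a positive difference in Ro, from 0.07 to 0.52 with a median of 0.29. Of these, 6 passed the test (46.2%, beside 19.4% of all features called higher). In washout against Ro all 13 differences were negative, and 7 genes passed (53.8%, beside 20.1% of all features called lower). Eif3i, a WD-repeat subunit, had the largest rise at 0.52 ± 0.07 (adjusted p = 0.0038) and fell by 0.47 on the log2 scale after washout (adjusted p = 0.0049). It read 1.90 and 1.91 in control, 2.39 and 2.44 in Ro, and 1.93 and 1.96 in washout. The Ro arrays stood apart, and the other 4 spanned less than 0.1.

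Eif3f, a subunit with an MPN domain, read 3.40 and 3.39 in control, 3.86 and 3.92 in Ro, and 3.64 and 3.41 in washout. Both Ro arrays were above the rest (0.49 ± 0.10, adjusted p = 0.015), and washout was lower than Ro (-0.36 ± 0.10, adjusted p = 0.037). Eif3b, the RNA-binding core subunit, read 4.41 and 4.49 in control, 4.86 and 4.90 in Ro, and 4.22 and 4.40 in washout. Ro again lay above both other groups, with changes of 0.43 ± 0.09 and -0.57 ± 0.09 (adjusted p = 0.017 and 0.0067).

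Eif3l rose by 0.35 ± 0.07 and was lower in washout than in Ro, at -0.36 ± 0.07. Eif3m rose by 0.38 ± 0.11 with an adjusted p of 0.0498, at the edge of the threshold, and its change after washout did not pass (-0.37 ± 0.11). Eif3e rose by 0.29 ± 0.07, but its probe lay in a bright region. Without such probes, its other probe gave 0.13 (adjusted p = 0.29), and the washout change of -0.24 became -0.22 (adjusted p = 0.11). The large scaffold subunit Eif3a and the RNA-binding subunit Eif3g were lower in washout than in Ro, by -0.38 ± 0.08 and -0.33 ± 0.07. Eif3c, Eif3d, Eif3h, Eif3j1 and Eif3k passed no test with their brightest probes. Tested probe by probe, a dimmer probe of Eif3c gave -0.46 ± 0.13 in washout against Ro (adjusted p = 0.043), and the gene's other probes did not pass.

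In the cap-binding complex eIF4F and its helicase cofactors, 4 of 11 genes rose in Ro and 6 were lower in washout than in Ro. Their shares were 36.4% and 54.5%, beside 19.4% and 20.1% of all features. Eif4g3 encodes the second eIF4G scaffold, which joins the cap-binding protein to eIF3. It read 4.14 and 4.28 in control, 4.83 and 4.80 in Ro, and 4.29 and 4.08 in washout. The Ro arrays were clear of the rest, and control and washout overlapped. The changes were 0.60 ± 0.10 (1.52-fold, adjusted p = 0.0085) and -0.63 ± 0.10 (1.55-fold lower, adjusted p = 0.0072). Without Ro 1 the first of these had an adjusted p of 0.055, as had the rise of Eif1a, and without Ro 2 that of Eif4b had 0.056.

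Eif4a1, the RNA helicase that unwinds leader sequences, read 4.94 and 5.02 in control, 5.36 and 5.46 in Ro, and 4.82 and 4.92 in washout. Ro lay above both other groups (0.43 ± 0.08 and -0.54 ± 0.08, adjusted p = 0.013 and 0.0062). Its paralogue Eif4a2 differed by -0.08 ± 0.10, and Eif4a3, the helicase of the exon junction complex, by 0.10 ± 0.11. Eif4b stimulates the helicase. It read 0.76 and 0.89 in control, 1.34 and 1.39 in Ro, and 0.96 and 0.82 in washout, again with Ro apart (0.54 ± 0.09 and -0.47 ± 0.09, adjusted p = 0.0083 and 0.012). Eif4h, a related cofactor, did not pass the test.

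The cap-binding protein itself, Eif4e, read 2.77 and 2.80 in control, 2.94 and 2.94 in Ro, and 2.85 and 2.83 in washout. Although the groups did not overlap, the change of 0.15 ± 0.07 did not pass (adjusted p = 0.13), with an interval of -0.02 to 0.32. Eif4e2, a cap-binding homologue that represses translation, did rise. It read 2.15 and 2.13 in control, 2.59 and 2.59 in Ro, and 2.20 and 2.19 in washout, so that Ro stood alone (0.45 ± 0.06 and -0.39 ± 0.06, adjusted p = 0.0051 and 0.0076). Tested probe by probe, the dimmer probes of Eif4e2 gave 0.40, 0.13 and 0.33 in Ro against control. None of them passed in that comparison or in washout against Ro. Eif4e3 differed by -0.09 ± 0.07.

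Eif4g1, the main scaffold, read 2.61 and 2.59 in control, 2.96 and 3.06 in Ro, and 2.18 and 2.61 in washout. Washout 1 was the lowest array, and washout 2 lay between the control arrays. Its change in Ro was 0.41 ± 0.15 (adjusted p = 0.087), and in washout against Ro it was -0.61 ± 0.15 (adjusted p = 0.028). The probe lay in a bright region. The gene's other probe gave 0.18 and -0.61 (adjusted p = 0.26 and 0.011) once such probes were left out. Eif4g2, a scaffold without the eIF4E-binding part, was lower in washout than in Ro (-0.30 ± 0.08). Tested probe by probe, its dimmer probes gave 0.39, 0.13 and 0.15 in Ro against control (adjusted p = 0.019, 0.39 and 0.47). In washout against Ro the same probes gave -0.13, -0.49 and -0.44 (adjusted p = 0.27, 0.021 and 0.074).

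**Figure D3:**
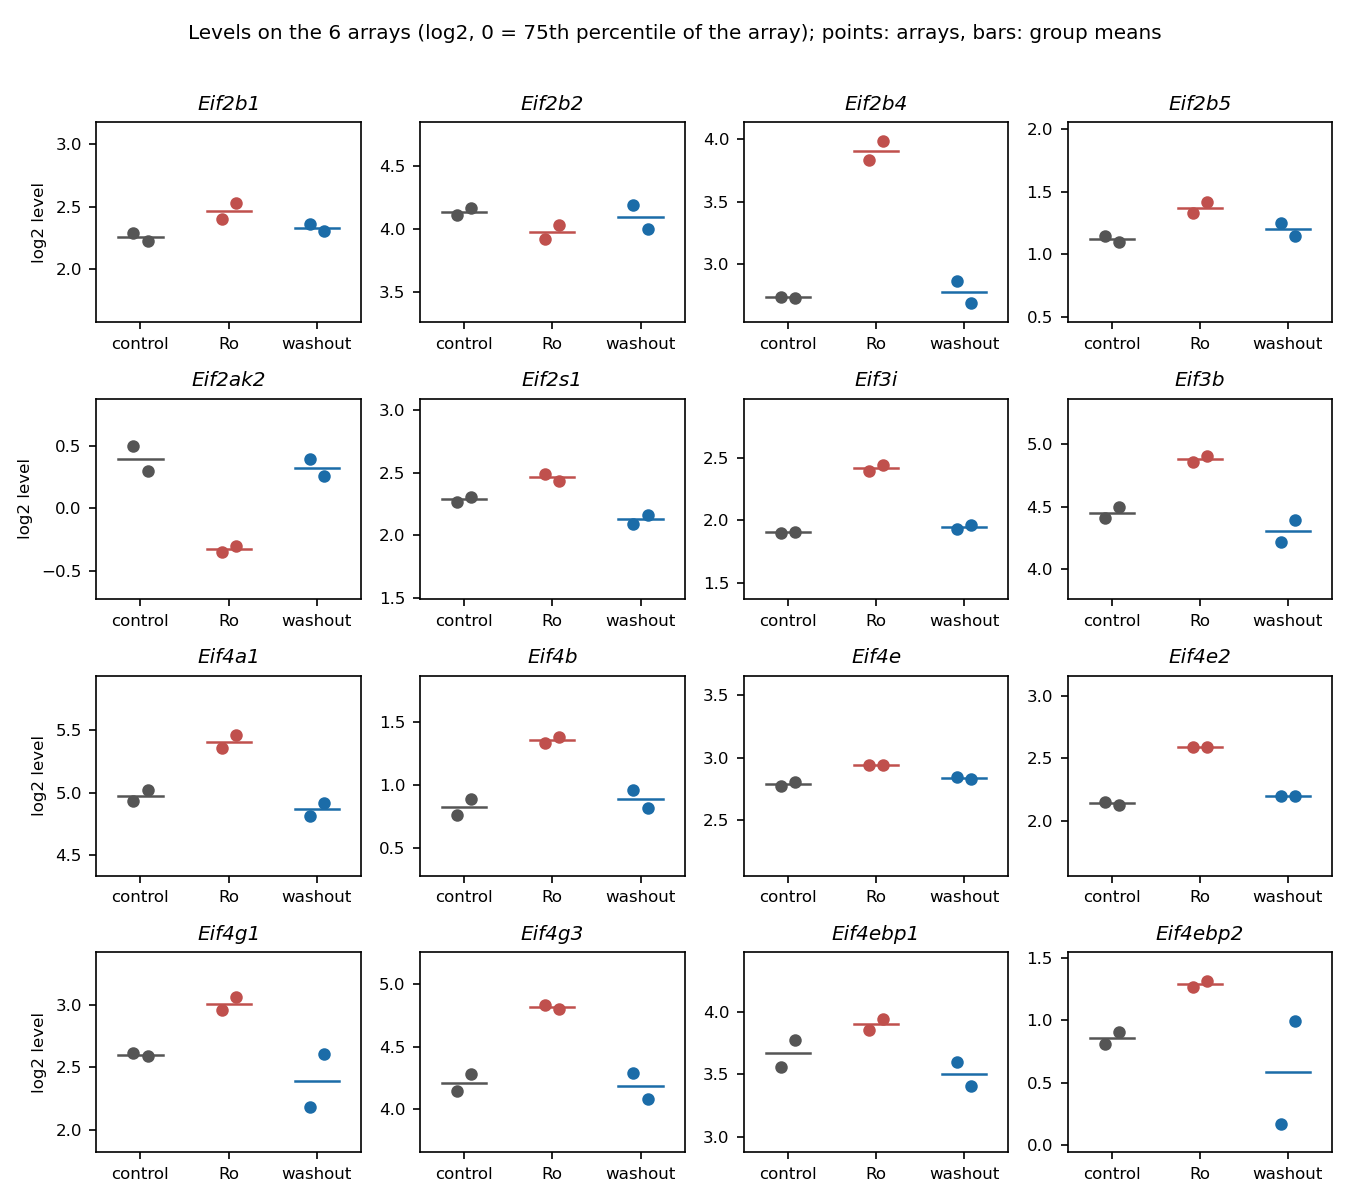
Log2 level on each of the 6 arrays, relative to the array's 75th percentile, for 16 genes, with points for arrays and bars for group means; each panel spans 1.6 log2 units around its own midpoint. Eif2b4 has both Ro arrays above the rest, Eif2ak2 has both below, and Eif4ebp2 and Eif4g1 show a low washout 1 array.

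Among the proteins that hold eIF4E away from eIF4G, Eif4ebp3 and Eif4enif1 rose in Ro. Eif4ebp3 read 0.38 and 0.38 in control, 0.74 and 0.79 in Ro, and 0.55 and 0.31 in washout. Ro was above both groups (0.39 ± 0.10 and -0.33 ± 0.10, adjusted p = 0.032 and 0.048). The first of these calls was lost under 7 of 21 alternatives and the second under 11. Eif4enif1, which carries eIF4E to the nucleus and to processing bodies, rose by 0.28 ± 0.08 (adjusted p = 0.045). This call was lost under 12 of 21 alternatives, including each array left out. In washout against Ro its brighter probe gave -0.20 ± 0.08 and did not pass. Tested probe by probe, its dimmer probe gave 0.45 ± 0.12 in Ro and -0.58 ± 0.12 in washout against Ro (adjusted p = 0.034 and 0.015). Eif4ebp1, the repressor controlled by mTOR, read 3.56 and 3.78 in control, 3.86 and 3.94 in Ro, and 3.60 and 3.41 in washout. The Ro arrays were the highest, and control and washout overlapped. It did not pass in Ro (0.23 ± 0.11, adjusted p = 0.16) and was lower in washout than in Ro (-0.40 ± 0.11, adjusted p = 0.044).

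Eif4ebp2, the form abundant in brain, read 0.81 and 0.90 in control and 1.26 and 1.32 in Ro. The washout arrays read 0.17 and 1.00 and lay on either side of the control arrays. With a standard error of 0.27 the change of 0.43 in Ro did not pass (adjusted p = 0.25), nor did that of -0.71 after washout (adjusted p = 0.092). Leaving out either washout array brought its adjusted p to 0.016 in Ro against control. The washout difference depended on which array was kept, with the lone array assumed to vary like the other groups. Without washout 2 it was -1.12 against Ro and -0.69 against control (adjusted p = 0.0038 and 0.038), and without washout 1 it was -0.29 and 0.14 (adjusted p = 0.076 and 0.41).

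Of the 10 genes around start codon selection and subunit joining, 5 rose in Ro and 3 were lower in washout than in Ro. As shares these are 50% and 30%, beside 19.4% and 20.1% of all features. Eif1b, a paralogue of the start codon factor eIF1, read 4.43 and 4.50 in control, 4.91 and 5.06 in Ro, and 4.72 and 4.52 in washout. Ro was the highest group (0.52 ± 0.11, adjusted p = 0.015), and the washout arrays lay between (-0.37 ± 0.11, adjusted p = 0.044). Eif1 itself differed by 0.12 ± 0.08 and did not pass. Eif5a carries hypusine and assists the ribosome at stalling peptides. It read 3.12 and 2.91 in control, 3.44 and 3.48 in Ro, and 2.87 and 3.05 in washout, with Ro apart (0.44 ± 0.11 and -0.50 ± 0.11, adjusted p = 0.028 and 0.019). Its paralogue Eif5a2 differed by -0.11 ± 0.07.

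Eif1a is an autosomal copy of the tRNA-positioning factor eIF1A. Its brighter probe read 1.51 and 1.33 in control, 1.94 and 1.93 in Ro, and 1.75 and 1.75 in washout. All 3 groups were apart, with washout in between. The rise in Ro was 0.52 ± 0.09 (adjusted p = 0.0080), while washout differed from Ro by -0.19 ± 0.09 (adjusted p = 0.14) and from control by 0.33 ± 0.09 (adjusted p = 0.077). That probe lay in a bright region. The other probe, outside such regions, read 0.09 and 0.05 in control, 0.68 and 0.70 in Ro, and 0.22 and 0.26 in washout. Tested probe by probe, it gave 0.62 ± 0.07 in Ro, -0.45 ± 0.07 in washout against Ro and 0.17 ± 0.07 in washout against control (adjusted p = 0.0025, 0.0066 and 0.19), so that the lack of a call after washout holds for the brighter probe alone. The X-linked copy Eif1ax differed by 0.11 ± 0.09, and signal shared between the copies cannot be told apart here.

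Eif6, which keeps the large subunit from joining too early, rose by 0.39 ± 0.09 and was lower in washout than in Ro, by -0.30 ± 0.09. Its call in Ro was lost under 6 of 21 alternatives and that after washout under 11. Eif1ad, whose product holds an eIF1A domain, rose by 0.25 ± 0.07 (adjusted p = 0.038), while its second probe, in a bright region, gave -0.05. Eif5, the GTPase activator of eIF2, and Eif5b, which joins the subunits, passed no test with their brightest probes. Tested probe by probe, the dimmer probe of Eif5 gave 0.28 ± 0.08 in Ro against control (adjusted p = 0.046).

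Across probes the direction was shared within most genes. With every probe tested on its own, 32 of the 97 were higher in Ro and 1 lower, beside 18.3% and 21.2% of all 26473 probes. Of the 31 genes with several probes, 2 had probes of opposite sign in Ro against control, Eif1ad and Eif5a2. In washout against control 15 had.

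**Figure D4:**
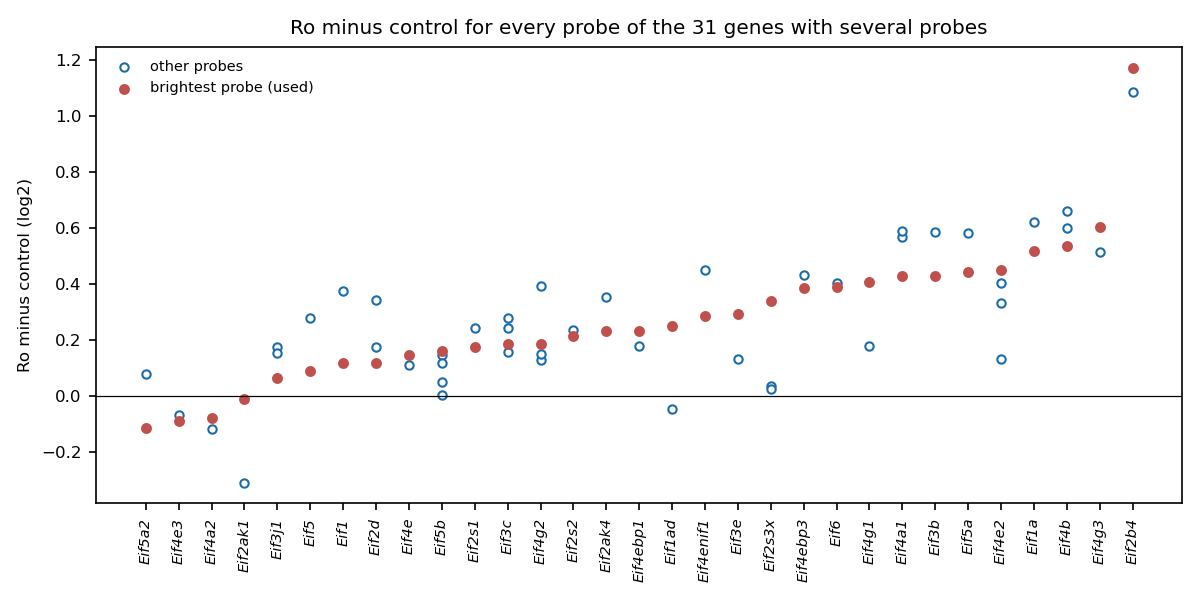
Difference between Ro and control on the log2 scale for every probe of the 31 genes with several probes; red points are the brightest probe, used in the tests, and open points the others. Both probes of Eif2b4 lie above 1, the 3 of Eif2s3x are spread from 0.03 to 0.34, and most open points lie on the same side of 0 as the red one.

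Promoter windows from RefSeq (GRCm38.p6, from 250 bases before to 50 after a start) were found for 43 of the 52 genes, and not for Eif1a, Eif3e, Eif3h, Eif3i, Eif4e3, Eif4ebp1, Eif4ebp3, Eif4g2 and Eif6. CACGTG, the E-box bound by Myc and related factors, reads the same on both strands. It was present for 10 of the 43 genes (23.3%) and for 8.09% of all 27025 genes with a window. Among the members higher in Ro with a window, 4 of 14 held it, and among the others 6 of 29, a difference that was not tested. Those 4 are shown 5′ to 3′ with the motif in capitals. For Eif1b, on the plus strand at chr9:120492565-120492604, the motif begins at -24 from the start. For Eif3f, on the plus strand at chr7:108934330-108934369, it begins at -68. For Eif4a1, on the minus strand at chr11:69672590-69672629, it begins at -189. For Eif5a, on the minus strand at chr11:69921438-69921477, the match shown begins at -74.
Eif1b: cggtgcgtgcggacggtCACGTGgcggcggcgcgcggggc
Eif3f: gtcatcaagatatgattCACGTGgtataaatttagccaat
Eif4a1: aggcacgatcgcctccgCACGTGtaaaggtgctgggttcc
Eif5a: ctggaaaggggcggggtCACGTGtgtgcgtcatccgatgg

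The other 2 motifs, searched on both strands, were rare. TGATGNAA, the composite core of C/EBP and ATF factors, was found for Eif2s3x alone (2.33% of members against 4.51% of all genes). TTCAAAG, the core bound by TCF/LEF factors of Wnt signalling, was found for Eif3g and Eif3l (4.65% against 5.93%). A match is only a stretch of letters in these windows.

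Other translation genes, outside the Eif family, were read on the same arrays. Of 9 genes for elongation factors, 4 rose in Ro, with a median of 0.49, and 5 were lower in washout than in Ro. The counts make 44.4% and 55.6%, beside 19.4% and 20.1% of all features. Eef1a2, which delivers tRNA in neurons and muscle, rose by 0.97 ± 0.13 on its 1 probe, from a low level of -2.90 in control to -1.92 in Ro. Eef1b2 and Eef1g, parts of its exchange factor, rose by 0.79 ± 0.09 and 0.62 ± 0.09. Eef1a1 differed by 0.22 ± 0.13 and did not pass (adjusted p = 0.23). Of the 19 tested regulators of initiation 5 rose and 1 fell. These make 26.3% and 5.26%, beside 19.4% higher and 22.7% lower among all features. Pabpc1, the poly(A)-binding protein, rose by 0.79 ± 0.12 and Tsc1, a brake on mTOR, by 0.52 ± 0.10. Paip2, which sequesters Pabpc1, fell by 0.44 on the log2 scale. Of 6 release and recycling genes and 8 mitochondrial ones, 1 each rose, Abce1 (0.29 ± 0.07) and the elongation factor gene Tufm (0.34 ± 0.10). That is 16.7% and 12.5%, beside 19.4% of all features. The call of Tufm was lost under 12 of 21 alternatives, including each array left out, and that of Abce1 under 7.

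In washout against Ro, 1 of the 19 regulators was higher and 4 were lower (5.26% and 21.1%, beside 21.4% and 20.1% of all features). Ppp1r15a, which directs a phosphatase to eIF2 alpha, was higher (0.91 ± 0.14). Pabpc1 and Dyrk1a, a kinase of the eIF2B epsilon subunit, were lower (-0.83 ± 0.12 and -0.77 ± 0.08). Dyrk1a was also lower in washout than in control, at -0.39 ± 0.08 (adjusted p = 0.044), a call lost under 15 of 21 alternatives, including each array left out. Pelo, a rescue factor for stalled ribosomes, was higher in washout than in Ro (0.48 ± 0.07) and than in control (0.42 ± 0.07, adjusted p = 0.031). The call against control was lost under 11 of 21 alternatives, including each array left out and the authors' deposited ratios.

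Markers of other cells moved along with the groups in these bulk cultures, where fewer cells of a type and less RNA per cell cannot be told apart. The sums given here are carried by the brightest probes, so that the counts of genes called in Ro against control stand beside them. In that comparison 22.7% of all features were lower and 19.4% higher. Of 10 microglial genes 9 were tested, with P2ry12 never above background. In Ro 4 were lower, among them Cx3cr1 (3.38-fold), Itgam (3.03-fold) and Csf1r (2.39-fold), and 1 was higher, Tmem119 (1.91-fold). Their summed level was 10.7 to 11.1 in control, 7.37 to 9.45 in Ro and 11.0 to 11.7 in washout. The sum of 4 oligodendrocyte precursor genes was 24.2 to 24.5 in control, 6.04 to 6.05 in Ro and 15.0 to 15.8 in washout, with all 4 lower in Ro. For 4 ependymal genes it was 33.8 to 34.5, 11.6 to 13.5 and 38.2 to 41.1, with all 4 lower in Ro. For 4 neuronal genes it was 9.61 to 10.0, 7.07 to 7.61 and 9.27 to 9.36, with 3 lower in Ro and Snap25 never above background. For 5 meningeal fibroblast genes it was 16.8 to 21.7, 14.9 to 15.6 and 9.98 to 10.2, with 3 lower in Ro and 1 higher. Of 5 endothelial genes 1 was tested. The 10 proliferation genes summed to 38.4 to 39.4 in control, 42.9 to 43.0 in Ro and 39.3 to 41.9 in washout, and 1 of them, Mki67, passed in Ro (0.31 ± 0.08). Their part in the changes of the initiation genes was not tested.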

How the data were processed

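The 6 arrays form 3 groups of 2. The deposited scanner files give linear intensity values per spot, which the authors extracted from Cy3 scans with Agilent Feature Extraction (10.1 per the submitters' processing notes, 10.5.1.1 per the file headers). The processed intensity used here is already corrected for background within an array. The authors' deposited table holds a linear ratio for each probe, with centring not given in the sources used here. It served as an alternative. On the log2 scale, its deviations from each kept probe's mean over the 6 arrays correlated with those of the processed intensity at 0.997 to 1 per array.

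Of 41174 probes, 106 with faulty spots were left out. The 75th percentile of its array was subtracted from each log2 intensity. A probe had to be well above background on each array of some group (26473 probes), and the brightest stood for its gene. Accessions were matched to current RefSeq symbols, which named 25097 probes (61%). Tests used limma 3.58.1 (R 4.3.3) on all 6 arrays in 1 fit, two-sided, with 3 residual and 2.09 prior degrees of freedom. With 2 arrays against 2, an exact permutation test cannot go below 0.333, so that calls rest on the spread pooled across genes. The procedure was tested on simulated data. matplotlib 3.10.9 (Python 3.11.15) drew the figures.

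The members, lists and motifs were chosen with earlier results of these data known. Members past the threshold were named, with a set of fixed genes and up to 3 genes of each other list. Alternatives changed background correction, scaling, filter, variance model, probe choice, arrays in the fit, pairing and threshold, and left out each array. Deviations of same-numbered arrays correlated at -0.119 to 0.0784, so that no shared effect of the replicate number was seen. Whether same-numbered arrays came from a common preparation cannot be decided from so few arrays a group. The main fit did not pair them. Protein sequences were not used here.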

Additional observations from a re-analysis of the deposited data

How the results depend on the processing

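The number of genes higher in Ro than in control (19) was 8 with no filter on dim probes, 6 at adjusted p under 0.01, and 5 to 20 with 1 array left out. The number lower in washout than in Ro (23) was 9 with no filter, 7 at adjusted p under 0.01, 14 with the replicate number as a block, and 5 to 17 with 1 array left out. In washout against control, where no gene was called, 1 was higher with a variance trend and 2 with a robust trend, and 0 to 1 were lower with 1 array left out. The block gave 13 genes higher in Ro, and with the Ro numbers exchanged, a setting chosen after seeing the data, 18. Eif2ak2, Eif2b4 and Eif3i were called under all 21 alternatives in both comparisons with Ro. The median change of the members ranged from 0.22 to 0.28 in Ro against control and from -0.36 to -0.22 in washout against Ro. In washout against Ro the median of all features moved to 0.137 with no filter and to -0.125 with the authors' deposited ratios, which gave 3281 features higher and 5146 lower in place of 4294 and 4039. The share of all features called in washout against control ranged from 0.411% to 14.2%.

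Among the fixed set of named members, calls gained in Ro against control were those of Eif2b5 and Eif4g1 (6 of 21 alternatives each), Eif4ebp2 (3), Eif2b1 (2) and Eif2s1 (1), and in washout against Ro that of Eif4ebp2 (3), besides the calls against control above. No called change of a member changed sign. Signs of members turned for differences that had not passed. With the authors' deposited ratios Eif2ak1 gave 0.035, -0.067 and -0.032 in the 3 comparisons. In washout against control these ratios gave -0.048 for Eif2ak4, -0.016 for Eif2b4, 0.000 for Eif4b, -0.012 for Eif4e and -0.009 for Eif4ebp3. In Ro against control Eif2ak1 gave 0.004 with quantile normalization and 0.008 with median centring, and with the mean of its probes it gave -0.005 in washout against Ro and -0.163 in washout against control. Outside the members, the call of Mycn in washout against control (0.39) turned to -0.078 with the mean of its probes. With 1 array left out, Eif2ak1 ranged from -0.14 to 0.123, -0.009 to 0.083 and -0.102 to 0.16. In washout against control the ranges were -0.174 to 0.031 for Eif2ak2, -0.079 to 0.105 for Eif2ak4, -0.138 to 0.05 for Eif2b2, -0.044 to 0.134 for Eif2b4, -0.01 to 0.132 for Eif4b, -0.687 to 0.139 for Eif4ebp2, -0.067 to 0.171 for Eif4ebp3 and -0.422 to 0.005 for Eif4g1. The cause was not tested, except that fewer arrays or a stricter threshold leave fewer calls by construction.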

Other observations

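The genes of the Myc network, whose products bind CACGTG, were looked at after the promoter windows had been read. Myc read 1.21 and 1.27 in control, 0.06 and 0.12 in Ro, and 1.65 and 1.84 in washout. It was 2.22-fold lower in Ro than in control (-1.15 ± 0.09, adjusted p = 8.5e-04 by limma) and higher in washout than in both other groups, with 1.65 ± 0.09 against Ro and 0.50 ± 0.09 against control (adjusted p = 0.036). The call against control was lost under 13 of 21 alternatives, including each array left out and the mean of its probes. Mycn read -1.53 and -1.56 in control, -0.15 and -0.12 in Ro, and -1.10 and -1.22 in washout. It was 2.66-fold higher in Ro (1.41 ± 0.08), while the mean of its 2 probes gave 0.94 and did not pass (adjusted p = 0.13). Max, the shared partner of both, read 3.59 and 3.42 in control, 4.29 and 4.24 in Ro, and 3.45 and 3.47 in washout, and was 1.69-fold higher in Ro (0.76 ± 0.08, adjusted p = 0.0023).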
